A study of Mus musculus with 2 samples.

Results

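The 10 genes described here are 8 semaphorins (Sema3a, Sema3d, Sema3f, Sema3g, Sema5a, Sema6a, Sema6d and Sema7a) and 2 plexins (Plxnd1 and Plxna2), found by symbol among the 32285 gene rows of the count matrices. Each symbol had 1 row in both libraries. They were followed across arterial, capillary, venous, high endothelial and lymphatic endothelial cells of mouse lymph nodes. The mice were wild-type (WT) or Xbp1-KO, the nodes peripheral or mesenteric, and every group had received tamoxifen, the drug used to switch on inducible Cre recombinases. Each of 2 droplet libraries mixed 4 pools marked by antibody-borne tags (hashtags), 1 for each combination of genotype and tissue. Each group of tissue and genotype therefore had n = 2 pools, 1 per library. The Cre line, the cells in which it acts, the number of animals and their sex are not in the labels, and nodes were pooled, so p-values measure the spread between these pools.

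Semaphorins are secreted or membrane-bound guidance cues, first known from growing axons, and plexins are their receptors. Most secreted class 3 semaphorins bind a neuropilin, Nrp1 or Nrp2, which pairs with a plexin that carries the signal into the cell and loosens its adhesion and cytoskeleton. Neuropilins also bind vascular endothelial growth factors. In vessels the family is known for patterning arteries and capillary sprouts, and in lymphatic vessels for valve formation and for the passage of dendritic cells across the vessel wall.

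Library 1 held 7709 barcodes and 33024170 gene UMIs (unique molecular identifiers, 1 per captured RNA molecule), and library 2 held 2903 barcodes and 14744778 UMIs. The libraries shared 3 barcodes. The 9275 cells kept were clustered without the 31 genes of the semaphorin, plexin and neuropilin families and without Xbp1, so that no member helped to define a subset. Clusters were named from marker genes and are marker-like subsets, not authors' annotations. The lymphatic class held 3725 cells (floor, ceiling, Marco-marked, Ptx3-marked and collecting or valve subsets), the high endothelial class 453, and the other blood class 3911 (arterial, tip, venous, 3 capillary subsets led by Col13a1, Igfbp3 and Fabp4, and an unnamed cluster led by Hspa1a). An unnamed blood cluster of 953 cells led by Aqp1 was shown as a subset but belonged to no class. Xist marked 73.1 to 82.5% of Xbp1-KO cells in library 1, 76.8 to 85.4% of WT cells in library 2 and at most 1.77% of cells in any other pool. The Y-linked gene Ddx3y was counted in 22.6 to 31.9% of cells in the pools low in Xist and in at most 0.349% in the others. WT and Xbp1-KO pools of a library thus differed in this X-inactivation transcript and in Ddx3y, in opposite directions in the libraries. Within 1 library, genotype cannot be told apart from this difference.

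Coordinates are from GENCODE M21 on GRCm38. Among the secreted class 3 genes, Sema3d (ENSMUSG00000040254, chr5:12383385-12588948, plus strand) and Sema3a (ENSMUSG00000028883, chr5:13125414-13602565, plus strand) lie 536.5 kb apart. Sema3g (ENSMUSG00000021904) spans chr14:31217860-31230352 on the plus strand, and Sema3f (ENSMUSG00000034684) spans chr9:107681500-107710475 on the minus strand. Of the membrane-bound genes, Sema5a (ENSMUSG00000022231) spans chr15:32244810-32696341 on the plus strand with up to 23 exons. Sema6a (ENSMUSG00000019647) is read from the minus strand. Sema6d (ENSMUSG00000027200) spans chr2:124089969-124667770 on the plus strand, and Sema7a (ENSMUSG00000038264) chr9:57940112-57962865 on the plus strand. The receptor genes are Plxnd1 (ENSMUSG00000030123, chr6:115954811-115995005, minus strand, up to 36 exons) and Plxna2 (ENSMUSG00000026640, chr1:194618218-194816869, plus strand, up to 32 exons).

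The promoters of 4 genes are shown, the 3 with the largest differences between lymphatic and blood cells (Sema3g, Sema3d and Sema3a) and Sema5a, which differed most between tissues in lymphatic cells, each as the 250 bases before the RefSeq start on GRCm38.p6, plus strand, 5′ to 3′. Of the 10 members, 8 had an entry. Capitals mark matches on either strand to ACAAT (the core bound by SOX factors), TGGGAA (the core bound by RBPJ), AGGTCA (the core bound by nuclear receptors) and TGTTTA (the core bound by forkhead factors). The Sema3g window is chr14:31217623-31217872, with 60.4% G or C, and its end overlaps the first exon of Sema3g; the Sema3d window is chr5:12382916-12383165, with 46.8%. None of these letters occurred in either.
Sema3g: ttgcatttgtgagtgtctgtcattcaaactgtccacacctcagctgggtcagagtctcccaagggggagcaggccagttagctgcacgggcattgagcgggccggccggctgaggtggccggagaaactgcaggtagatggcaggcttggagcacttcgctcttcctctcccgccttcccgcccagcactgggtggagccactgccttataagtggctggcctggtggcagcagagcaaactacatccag
Sema3d: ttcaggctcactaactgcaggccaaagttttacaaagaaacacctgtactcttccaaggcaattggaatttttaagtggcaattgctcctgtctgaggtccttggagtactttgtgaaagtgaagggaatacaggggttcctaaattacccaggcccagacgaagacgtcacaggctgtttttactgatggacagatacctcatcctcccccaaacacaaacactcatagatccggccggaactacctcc
The Sema3a window is chr5:13396534-13396783, with 40.8% G or C, inside the annotated span of the gene and in no exon. It held ACAAT once, on the minus strand, 12 bases before the start.
Sema3a: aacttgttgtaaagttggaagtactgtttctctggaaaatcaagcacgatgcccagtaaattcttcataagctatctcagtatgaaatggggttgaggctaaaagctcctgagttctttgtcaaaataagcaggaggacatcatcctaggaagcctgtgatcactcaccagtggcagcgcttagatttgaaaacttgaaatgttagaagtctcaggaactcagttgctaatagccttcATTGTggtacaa
The Sema5a window is chr15:32244563-32244812, with 72% G or C and 17 CpG. It held TGGGAA and AGGTCA, sharing 1 base, and overlapped an exon of Snhg18, a gene read in the opposite direction.
Sema5a: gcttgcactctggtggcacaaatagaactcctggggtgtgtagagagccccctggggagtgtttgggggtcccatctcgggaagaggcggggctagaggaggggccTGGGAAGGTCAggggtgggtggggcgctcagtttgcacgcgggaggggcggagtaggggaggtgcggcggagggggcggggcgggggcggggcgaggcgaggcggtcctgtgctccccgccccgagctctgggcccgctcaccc
Over the 32851 windows of this length in the table, ACAAT occurred in 27.7%, TGGGAA in 21.6%, AGGTCA in 14.0% and TGTTTA in 12.03%, so the matches are a description of the letters.

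Levels are given as CPM, UMIs of a gene scaled to a total of 1000000, over all cells of a subset in a pool, for pools with at least 10 cells of the subset, as mean ± SD over pools. The counts are 3′ tags, and levels were compared within a gene, not between genes. Sema3g, a secreted ligand for Nrp2 known from arterial endothelium, stood at 710.5 ± 138 CPM in arterial cells (n = 8, lowest 467, highest 858). The next subsets were the Igfbp3 capillary cells at 181 ± 69.4 CPM and the Hspa1a-led cells at 114 ± 32.0 CPM. It fell off through Fabp4 capillary (93.0 CPM), Aqp1-led (55.7), Col13a1 capillary (40.4) and tip cells (17.5) to 8.596 CPM in venous and 2.21 CPM in high endothelial cells. The arterial pools lay above every pool of the other subsets.

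In the lymphatic subsets Sema3g averaged at most 1.58 CPM, and no UMI was counted among 2198595 in Ptx3 lymphatic cells. Against a floor of 3 counts over that group, the pooled arterial level of 715 CPM was at least 524-fold higher. With each cell thinned to 1500 UMIs, 60.8% of 479 arterial cells held a Sema3g UMI (exact 95% interval 56.2 to 65.2%), against 16.6% of 610 Igfbp3 capillary cells and 0.161% of 1244 floor cells. The unthinned shares were 73.0%, 26.5% and 0.480%. The intervals cover counting error only, and 61 arterial, 80 Igfbp3 capillary and 5 floor cells were too shallow to enter.

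**Figure D1:**
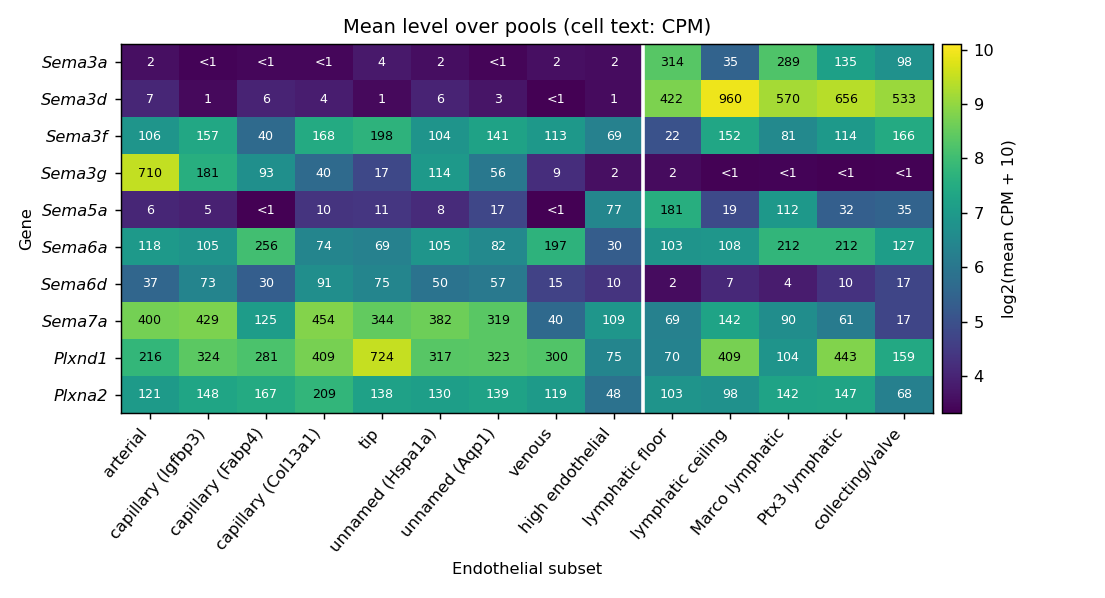
Heat map of the level of each of the 10 members (rows) in the 14 endothelial subsets (columns), as the mean CPM over pools with at least 10 cells; colour shows log2(mean CPM + 10), the number in a cell is the mean CPM, and a white line parts blood from lymphatic subsets. Sema3g is brightest in arterial cells (710.5 CPM), Sema3d in ceiling cells (959.7 CPM) and Plxnd1 in tip cells (724 CPM).

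Sema3a and Sema3d, secreted ligands that act through Nrp1, were lymphatic genes here but peaked in different subsets. Sema3a stood at 314 ± 34.4 CPM in floor cells (n = 8, 258 to 365), which line the side of the subcapsular sinus that faces the lymphoid tissue. It averaged 289 ± 143 CPM in Marco cells (n = 7), 135 CPM in Ptx3 cells and 97.6 CPM in collecting or valve cells, and 35.03 ± 9.48 CPM in ceiling cells, the outer wall of the sinus. Floor and ceiling pools did not overlap.

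Sema3d ran the other way between these walls. It stood at 959.7 ± 217 CPM in ceiling cells (n = 8, 619 to 1285) and at 422 ± 105 CPM in floor cells (n = 8, 300.3 to 598), again with no overlap. Ptx3 cells averaged 656 CPM, Marco cells 570.1 and collecting or valve cells 533. In blood subsets Sema3a averaged at most 3.82 CPM and Sema3d at most 6.55 CPM. No Sema3d UMI was counted in venous cells, and the pooled ceiling level was at least 201-fold higher than a floor of 3 counts there. The low Sema3d counts of the other blood class were higher in library 1 (3.67 to 9.25 CPM) than in library 2 (0.521 to 1.78 CPM), and the source of these counts was not tested.

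Sema3f, a secreted ligand that acts through Nrp2, was spread over both vessel systems. It was highest in tip (198.5 ± 45.6 CPM), Col13a1 capillary (168 CPM) and collecting or valve lymphatic cells (166 CPM), and lowest in floor cells at 22.4 ± 15.1 CPM. Ceiling cells stood at 152 ± 28.6 CPM, above every floor pool.

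Sema5a, a transmembrane semaphorin with thrombospondin repeats, averaged 180.9 CPM in floor cells, with an SD of 151 CPM and the pools of the 2 tissues lying apart. Marco cells averaged 112 ± 65.1 CPM and high endothelial cells 76.7 ± 12.7 CPM (n = 7, 62.7 to 102). Floor cells were the highest subset in peripheral pools, at 269.9 to 399 CPM. In mesenteric pools they held 39.5 to 55.8 CPM, below the high endothelial cells and overlapping collecting or valve cells (36.2 to 60.0 CPM). The collecting or valve, Ptx3 and ceiling subsets held 34.95, 31.6 and 18.9 CPM. No UMI was counted in venous or in Fabp4 capillary cells. At 1500 UMIs per cell, 28.1% of 1244 floor cells and 11.3% of 452 high endothelial cells held a Sema5a UMI, against 0 of 116 venous cells. At that depth the count of 0 allows up to 3.13% of venous cells with a UMI, and does not limit the share expressing the gene. The unthinned shares were 52.6%, 39.5% and 0%, at medians of 5359, 7769 and 4361 UMIs per cell. The shares pool the tissues, and floor cells came mostly from peripheral but high endothelial cells mostly from mesenteric nodes, so they give no order between these subsets.

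The class 6 ligands, transmembrane partners of class A plexins, differed from each other. Sema6a was found in every subset, from 256 ± 94.6 CPM in Fabp4 capillary cells and 212 CPM in both Marco and Ptx3 lymphatic cells to 30.2 ± 9.15 CPM in high endothelial cells. Venous cells held 197 ± 30.8 CPM (n = 4, 163 to 235), and the high endothelial pools, at 17.6 to 44.7 CPM, lay below all of them. Sema6d was highest in Col13a1 capillary (91.5 CPM), tip (75.4) and Igfbp3 capillary cells (73.4). The Fabp4 capillary cells, at 30.5 CPM, lay below the Aqp1-led (57.3), Hspa1a-led (50.1) and arterial cells (37.5), and floor cells held 1.60 ± 1.74 CPM.

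Sema7a, which is anchored to the membrane by a lipid and binds plexin C1 and integrins, stood at 454 ± 110.4 CPM in Col13a1 capillary, 429 ± 98.5 CPM in Igfbp3 capillary and 399.8 ± 64.1 CPM in arterial cells. These pools overlapped. Fabp4 capillary cells held less, 125 ± 36.6 CPM (67.0 to 179.9), and so did venous cells at 39.7 CPM and collecting or valve cells at 16.8 CPM. Its receptor Plxnc1 was counted with 8 UMIs in all endothelial subsets together.

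Of the receptors, Plxnd1, which binds Sema3e without a neuropilin, was highest in tip cells at 724 ± 88.3 CPM (n = 6, 616 to 875). Ptx3 lymphatic cells (443 ± 136 CPM), ceiling cells (409 ± 82.4 CPM) and Col13a1 capillary cells (409 ± 137 CPM) came next. High endothelial cells held 74.7 ± 27.0 CPM and floor cells 69.9 ± 13.8 CPM, the low end of the range. Its ligand Sema3e was counted with 2 UMIs. Plxna2, a receptor for class 6 ligands and for class 3 ligands held by a neuropilin, ranged from 209 ± 92.4 CPM in Col13a1 capillary cells to 48.4 ± 14.0 CPM in high endothelial cells. The highest Col13a1 pool stood at 401 CPM. By medians, Fabp4 capillary cells (179 CPM) lay above Col13a1 capillary cells (159 CPM).

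Of the co-receptors, Nrp1 separated the vessel systems and Nrp2 was found in both. Nrp1 stood at 1036 ± 136 CPM in Col13a1 capillary cells and at 0.793 CPM in floor cells. Nrp2 was highest in Ptx3 lymphatic (539 ± 58.9 CPM) and venous cells (436 CPM) and lowest in arterial cells (68.5 CPM), the subset highest in the Nrp2 ligand Sema3g. Floor and Marco cells, highest in the Nrp1 ligand Sema3a, were at 0.793 and 7.38 CPM in Nrp1. Among other plexins, Plxna4 was highest in ceiling cells (141 ± 32.4 CPM) and Plxnb2 in floor cells (126 ± 13.7 CPM). Plxnb3, a receptor for Sema5a, had 16 UMIs.

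**Figure D2:**
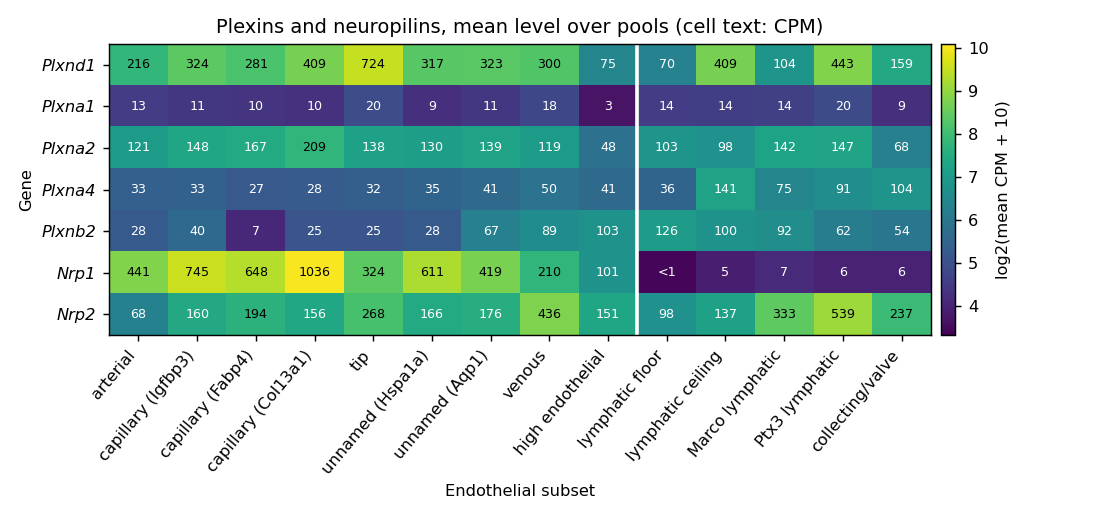
Heat map of 5 plexins and both neuropilins (rows) in the 14 subsets (columns), as the mean CPM over pools with at least 10 cells; colour shows log2(mean CPM + 10) and the number in a cell is the mean CPM. Nrp1 averages at most 7.38 CPM in the lymphatic subsets, and Plxnd1 is brightest in tip cells (724 CPM).

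Neighbours in the order of levels of each member were compared over pools by an exact two-sided sign-flip permutation test on log2(CPM + 10). None of the 130 neighbour pairs passed this exact test after Benjamini-Hochberg adjustment (smallest p = 0.00781, the smallest that 8 pools allow, adjusted p = 0.156). The order was taken from the same pools, and pairs with fewer pools could only give larger p-values. With so few pools the test could hardly pass, so the absence of calls is not read as likeness of neighbours. The arterial over Igfbp3 capillary step of Sema3g and the floor over arterial step of Sema3d pointed the same way in 8 of 8 pools at that p. So did the collecting or valve over ceiling step of Sema3a, the Aqp1-led over ceiling step of Sema7a and the arterial over collecting or valve step of Plxnd1. The tip over Ptx3 step of Plxnd1 did so in 6 of 6 pools (p = 0.0312, adjusted p = 0.239, exact test).

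Lymphatic cells were next set against other blood cells of the same 8 pools, with edgeR's quasi-likelihood test on summed counts and Benjamini-Hochberg adjustment over 9730 genes. Of the 10 members, 3 were higher in lymphatic cells and 6 lower. Over all genes tested, 31.2% were higher and 27.1% lower, so a change of either sign was common. The median log2 difference of the members was -0.61, and that of all genes 0.04. Lymphatic pools held Sema3d at 439 to 821 CPM (median 630.2) and other blood pools at 0.521 to 9.25 CPM (median 2.73), a log2 difference of 6.99 ± 0.22 (SE), 127-fold (adjusted p = 1.04e-15). Sema3a stood at 105 to 270.0 CPM (median 184) against 0 to 3.74 CPM (median 1.53), a log2 difference of 6.65 ± 0.20. Sema5a stood at 28.2 to 198 CPM (median 72.2) against 0 to 11.2 CPM (median 5.04), a difference of 3.62 ± 0.19. The groups of all 3 genes were apart in every pool. Other blood cells of all pools held 53 Sema3d, 21 Sema3a and 70 Sema5a UMIs among 11508602. The 3 genes passed the filter on low counts through the lymphatic pools alone, so their calls and fitted sizes are not read as support.

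Sema3g gave the largest difference among the members in the other direction. It was counted at 0 to 2.14 CPM in lymphatic pools (median 0.702) and at 108 to 216 CPM in other blood pools (median 175), a log2 difference of -7.75 ± 0.19 (adjusted p = 7.76e-17 in edgeR's quasi-likelihood test). Sema6d (-3.78 ± 0.22) and Sema7a (-2.26 ± 0.09) were also lower in lymphatic cells without overlap of the pools. Lymphatic cells of all pools held 16 Sema3g and 112 Sema6d UMIs among 20149420. Sema3g and Sema6d passed the filter on low counts through the other blood pools alone, so their calls and fitted sizes are not read as support. Plxnd1 (-0.78), Sema3f (-0.65) and Plxna2 (-0.57) were lower with overlapping pools, and Sema6a differed by 0.06 ± 0.10 (adjusted p = 0.617). Of the other 8 family genes tested, Plxnb2 (1.48), Plxna4 (1.09) and Nrp2 (0.20) were higher in lymphatic cells and Nrp1 (-7.79), Sema3c (-3.91) and Sema4c (-0.33) lower. Nrp1 and Sema3c, at lymphatic medians of 3.36 and 2.50 CPM, passed the filter through the other blood pools as well. Of 24 signalling partners tested, 12 were higher and 8 lower, the latter including Flt1 and Kdr, receptors for vascular endothelial growth factors.

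**Figure D3:**
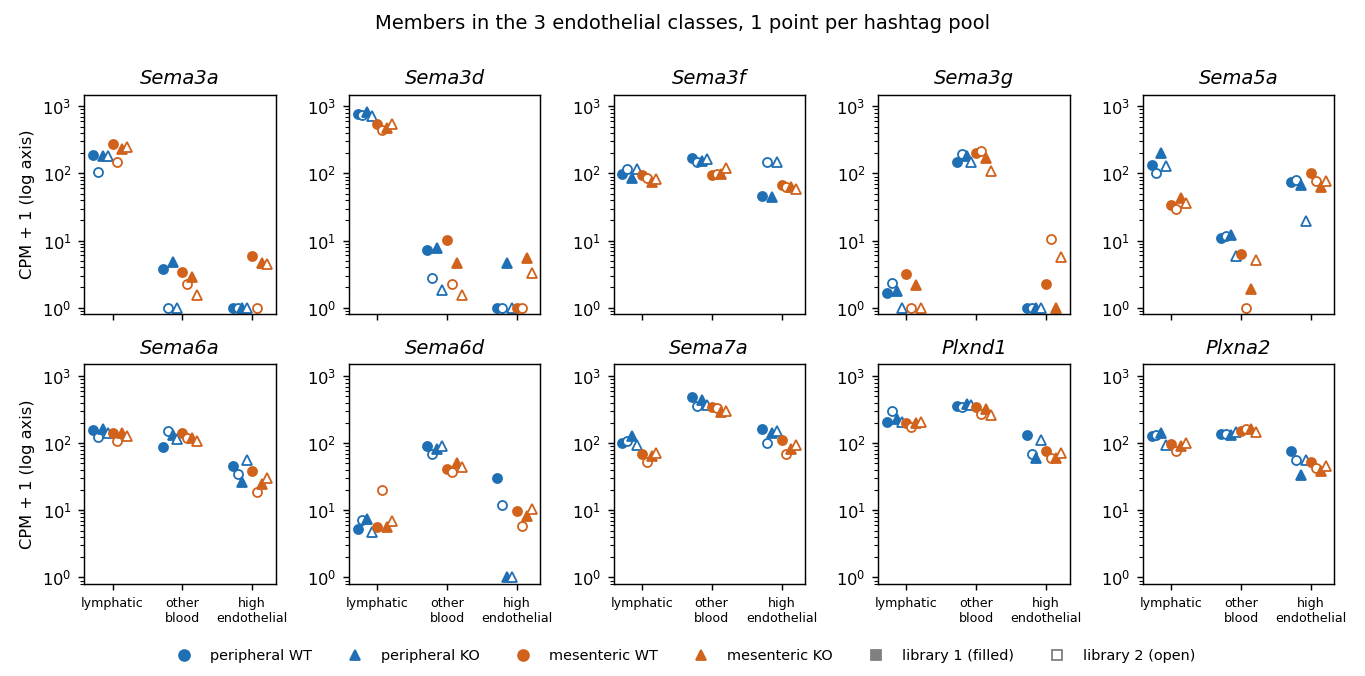
Level of each member in CPM (log axis of CPM + 1) in lymphatic, high endothelial and other blood cells; each point is 1 of the 8 pools, coloured by tissue, shaped by genotype, filled for library 1 and open for library 2. Sema3a, Sema3d and Sema5a lie higher in lymphatic than in other blood pools, and Sema3g, Sema6d and Sema7a lower, without overlap.

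Within blood vessels, arterial cells were set against capillary cells of the same 8 pools. Of 7 members tested, Sema3g was higher and Sema6d, Plxnd1 and Plxna2 lower in arterial cells, where 11.1% of 3986 genes were higher and 10.0% lower. Arterial pools held Sema3g at 467 to 858 CPM (median 735) and capillary pools at 71.9 to 142 CPM (median 86.6). The log2 difference was 2.95 ± 0.12, or 7.75-fold, with no overlap (edgeR quasi-likelihood test, adjusted p = 1.29e-15). Plxnd1 stood at 168 to 273 CPM against 272 to 363 CPM and was lower in 8 of 8 pools, by a log2 difference of -0.64 ± 0.11 (edgeR adjusted p = 3.92e-05). Sema6d differed by -0.98 ± 0.21 and Plxna2 by -0.45 ± 0.14, the latter with an edgeR adjusted p of 0.0159 with the pool as a block and 0.0730 with no replicate block. Without library 1, neither Sema6d nor Plxna2 was called (edgeR adjusted p = 0.264 and 0.398). With sums thinned to the smallest, Plxnd1 (-1.23, edgeR adjusted p = 0.215) and Plxna2 (-0.75, 0.610) were not called. Sema3f (-0.32), Sema6a (-0.20) and Sema7a (0.11) did not pass. The co-receptors Nrp2 (-1.36) and Nrp1 (-0.96) were lower in arterial cells as well. Of 12 partners tested, Rras, a small GTPase that plexins inactivate, was higher, and Kdr, Flt1, Rap1b and Arhgef12 were lower.

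High endothelial cells line the venules through which lymphocytes enter the node, and they were set against venous cells in the 4 pools with at least 10 cells of both. Of 6 members tested, 2 were higher in high endothelial cells and 3 lower, beside 12.1% and 12.6% of 2864 genes. With every sum thinned to the smallest of the comparison, Plxnd1 alone of the members was still tested, at -3.05 (edgeR adjusted p = 0.357), and none was called. Sema5a stood at 62.7 to 102 CPM in high endothelial pools and at 0 in each venous pool. No UMI was counted among 540387 in venous cells of all pools, so the pooled high endothelial level of 76.4 CPM was at least 13.8-fold above a floor of 3 counts over the group. Sema5a entered the edgeR fit through the high endothelial pools alone, so its call is not read as support. Sema7a was higher by 1.37 ± 0.42 on the log2 scale, with 1 venous pool at 98.6 CPM among the high endothelial pools (81.6 to 143 CPM).

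The receptors and Sema6a were lower in high endothelial cells. Sema6a stood at 23.3 to 37.3 CPM against 163 to 235 CPM, a log2 difference of -2.44 ± 0.24. Plxnd1 stood at 58.5 to 74.7 CPM against 209 to 416 CPM, a log2 difference of -1.81 ± 0.20 (edgeR adjusted p = 1.78e-05). Neither overlapped. Plxna2 differed by -1.20 ± 0.25, and the co-receptors Nrp2 and Nrp1 were lower too (-0.78 for Nrp1). Sema3f, at -0.73 ± 0.27, missed the threshold (adjusted p = 0.0626 in edgeR's test).

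Peripheral and mesenteric nodes were compared over both genotypes, first in lymphatic cells (4 pools against 4). Values of pools are given in the order WT of library 1, WT of library 2, Xbp1-KO of library 1 and Xbp1-KO of library 2. Of 9 members tested, 3 were higher in peripheral nodes and none lower, beside 1.90% higher and 2.87% lower of 10683 genes. Sema5a was counted at 133, 102.0, 198 and 129.8 CPM in the peripheral pools and at 33.3, 28.2, 42.3 and 35.2 CPM in the mesenteric pools. The groups did not overlap, and the log2 difference was 1.92 ± 0.17, or 3.79-fold (edgeR quasi-likelihood test, adjusted p = 4.19e-05). Sema7a was higher by 0.63 ± 0.13 and Sema3d by 0.50 ± 0.12 on the log2 scale (adjusted p = 0.0160 and 0.0298, edgeR). With every sum thinned to the smallest, none was called: the log2 differences were 1.62 for Sema5a, 0.93 for Sema7a and 0.74 for Sema3d (edgeR adjusted p = 0.925, 0.681 and 0.273). Without library 1 the edgeR adjusted p of Sema7a was 0.253 and that of Sema3d 0.523, and without library 2 Sema3a and Plxna2 were called as well (0.00566 and 0.0348). Sema3a was lower in 4 of 4 pairs of pools, by a log2 difference of -0.56 ± 0.19 (adjusted p = 0.107 in edgeR, and 0.00546 with the library as a replicate block, where 12.7% of genes were called and 4 of 9 members).

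The make-up of the lymphatic class differed between tissues as well. Ceiling cells made up a median of 30.5% of lymphatic cells in peripheral and 20.1% in mesenteric pools, Ptx3 cells 13.2% and 5.82%, and floor cells 32.6% and 35.1%. Marco cells made up 10.8% and 16.9%, and collecting or valve cells 13.5% and 20.9%. Summed fibroblastic marker levels were 93.2 to 108 CPM in peripheral and 52.6 to 66.7 CPM in mesenteric lymphatic pools, with 6 of 7 genes counted and Lum at 0. Summed mural levels were 74.8 to 109.8 CPM (7 of 7) against 108 to 237 CPM (5 of 7, with Cspg4 and Itga7 at 0). Leukocyte levels were 252 to 381 CPM against 223 to 265 CPM (8 of 9 in both, with Cd3e at 0). Summed blood endothelial markers, all 6 counted, stood at 981 to 1289 CPM in peripheral and at 1357 to 1483 CPM in mesenteric lymphatic pools, without overlap. The part of these markers in the tissue differences was not tested. The comparison was therefore repeated within each subset with at least 10 cells in every pool.

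Within floor cells, 3 of 8 members tested were higher in peripheral nodes, beside 5.24% higher and 8.07% lower of 8475 genes. Sema5a stood at 269.9, 282, 399 and 319 CPM in peripheral pools and at 41.5, 39.5, 55.8 and 40.9 CPM in mesenteric pools, a log2 difference of 2.68 ± 0.18, or 6.40-fold (edgeR quasi-likelihood test, adjusted p = 1.15e-10). Plxna2 (0.58 ± 0.17) and Sema6a (0.51 ± 0.16) were higher as well. Sema3d (0.37 ± 0.16) and Sema7a (0.46 ± 0.18), called in the whole class, did not pass within floor cells, and Sema3a differed by -0.18 ± 0.15. Both Sema3d and Sema7a were higher in 4 of 4 peripheral pools than in their mesenteric partners, without overlap, in floor and in ceiling cells. The share of all genes with this pattern is not given here, so it is not read as a result about these members. In the same floor pools, summed leukocyte markers stood at 662 to 895 CPM in peripheral nodes (8 of 9 genes counted, Cd3e at 0). They stood at 426 to 561 CPM in mesenteric nodes (5 of 9, with Ptprc, Cd3e, Ms4a1 and Laptm5 at 0). Mural markers stood at 231 to 306 CPM in peripheral nodes (5 of 7, with Pdgfrb and Cspg4 at 0). In mesenteric nodes they stood at 314 to 556 CPM from Rgs5 and Myh11 alone (2 of 7). Pdgfrb, Notch3, Acta2, Cspg4 and Itga7 were at 0 there. Lymphatic markers stood at 1940.0 to 2403 CPM against 1122 to 1449 CPM (7 of 7 in both). None of these overlapped, and their part in the differences was not tested. Within ceiling cells Sema5a was higher by 2.73 ± 0.62 (edgeR adjusted p = 0.0251) at lower levels, beside 1.80% of 7767 genes called. It ranged from 0 to 51.8 CPM over these pools, and 2 mesenteric pools held no UMI. Sema5a passed the filter on low counts there through the peripheral pools alone, so its call is not read as support. Summed fibroblastic markers in these pools stood at 80.2 to 95.5 CPM in peripheral nodes (4 of 7 genes, with Pdgfra, Col1a1 and Lum at 0). They stood at 7.93 to 35.3 CPM in mesenteric nodes (2 of 7, with Pdgfra, Col1a2, Ccl19, Lum and Col3a1 at 0). Their part was not tested. With the library as a replicate block Sema3d was called there too, beside 4.57% of genes. In Marco cells Sema5a stood at 126, 190.5, 193 and 129.7 CPM in peripheral pools and at 48.7, 44.8 and 51.0 CPM in the 3 mesenteric pools with at least 10 cells, with no test.

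In collecting or valve cells Sema5a ran at 20.9, 14.5, 34.3 and 15.8 CPM in peripheral and at 36.2, 48.0, 60.0 and 49.9 CPM in mesenteric pools, all peripheral pools below all mesenteric ones, and the filter on low counts kept it out of the edgeR fit. None of the 6 members tested there was called, beside 0.632% of genes. High endothelial cells held 74.5, 78.3 and 65.8 CPM of Sema5a in peripheral pools with at least 10 cells, and 102, 76.8, 62.7 and 76.8 CPM in mesenteric pools. The difference between tissues was larger in floor than in collecting or valve cells by 3.51 on the log2(CPM + 10) scale, in an exact two-sided permutation test over pools (p = 0.0286, the smallest it can give). On this scale, which shrinks differences between low levels, the gap was 2.67 against high endothelial, 2.02 against Ptx3, 1.02 against Marco and 0.93 against ceiling cells (exact p = 0.0571 each). The 5 adjusted p-values were 0.0571, so none passed. The high endothelial, Ptx3 and Marco comparisons had 3 pools in 1 tissue and no overlap between the tissues. For them 0.0571 was the smallest p that the two-sided test allowed, so they could not have passed. In edgeR the tissue differences of Sema5a in floor and ceiling cells were fitted at 2.68 ± 0.18 and 2.73 ± 0.62 on the log2 scale. As 2 mesenteric ceiling pools held no Sema5a UMI, the ceiling value is not an exact size, and the 2 are not ranked. The floor-minus-ceiling difference within a pool overlapped between the tissues.

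Snhg18 (ENSMUSG00000096956), the long noncoding host gene of a small nucleolar RNA, was examined as the neighbour of Sema5a after the Sema5a values had been seen. It spans chr15:32240565-32244662 on the minus strand, and its start lies 148 bases from that of Sema5a. In floor cells it was counted at 126, 138, 139 and 133 CPM in peripheral and at 51.0, 23.7, 59.3 and 30.7 CPM in mesenteric pools, without overlap. The log2 difference was 1.45 ± 0.20, or 2.73-fold (edgeR quasi-likelihood test, adjusted p = 1.20e-05). Over all lymphatic cells the difference was 0.79 ± 0.16 (edgeR adjusted p = 0.0134). It did not pass in ceiling cells (1.001 ± 0.344, edgeR adjusted p = 0.154), in other blood cells (0.69 ± 0.29, 0.492), in high endothelial cells (0.20 ± 0.29, 0.972) or in Aqp1-led cells (-0.15 ± 0.31, 0.992). Collecting or valve cells had the opposite sign (-0.85 ± 0.36, edgeR adjusted p = 0.536). Snhg18 was 8.38-fold higher in high endothelial than in venous cells. Whether the files' counts used strand is not given in the sources used here. The genes do not overlap in GENCODE M21, but the RefSeq window before Sema5a shown above reaches into an exon of Snhg18.

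**Figure D4:**
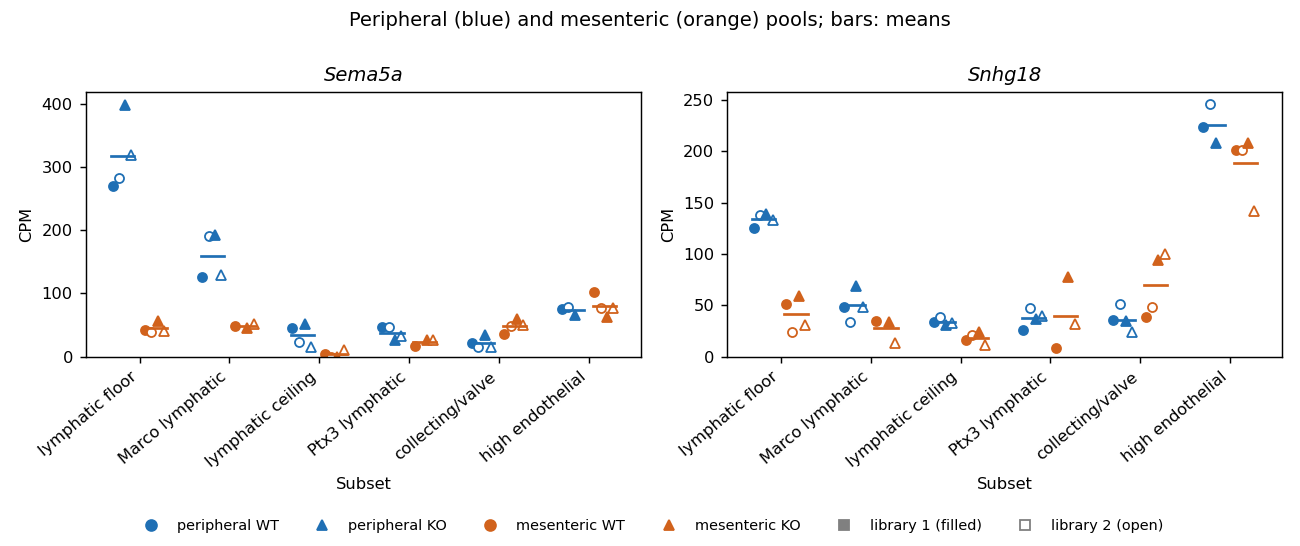
Level of Sema5a and Snhg18 in CPM by subset and tissue; each point is 1 pool with at least 10 cells and bars mark means. In floor cells the 4 peripheral pools of Sema5a lie at 269.9 to 399 CPM and the 4 mesenteric pools at 39.5 to 55.8 CPM.

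In other blood cells 1 of 8 members tested was higher in peripheral nodes, beside 0.586% higher and 0.523% lower of 9560 genes. Sema6d stood at 89.3, 67.6, 82.4 and 91.3 CPM in peripheral and at 39.8, 36.5, 50.5 and 43.8 CPM in mesenteric pools, a log2 difference of 0.96 ± 0.16 without overlap (edgeR quasi-likelihood test, adjusted p = 0.0137, and 0.587 with sums thinned to the smallest). Sema3f differed by 0.63 ± 0.14 (edgeR adjusted p = 0.0530) and Sema7a by 0.38 ± 0.15 (0.453). With the library as a replicate block their adjusted p-values were 9.99e-04 and 0.0229, and 4.88% of genes were called. Without library 1, Sema3f and Plxnd1 were called as well (edgeR adjusted p = 0.0486 and 0.0487), and without library 2, Sema3f and Sema7a (3.19e-06 and 3.64e-05). Over the whole class, Sema3g differed by -0.05 ± 0.17 and Plxna2 by -0.19 ± 0.13.

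Col13a1 capillary cells, the subset highest in Sema6d and Sema7a, made up 31.9 to 47.6% of other blood cells in peripheral and 2.81 to 4.81% in mesenteric pools. Hspa1a-led cells made up 7.90 to 14.8% against 32.9 to 62.5%. Summed erythroid levels reached 3397 CPM in 1 mesenteric Xbp1-KO pool and at most 17.8 CPM in peripheral pools. Within the Igfbp3 capillary subset Sema6d differed by 0.97 ± 0.31 (edgeR adjusted p = 0.253) and Sema3g by 0.83 ± 0.23 (adjusted p = 0.113), where 0.852% of genes were called. With the library as a block Sema3g was called there, beside 2.00% of genes. No member was called within arterial (0.0800% of genes called), Fabp4 capillary (0%), Aqp1-led (0.880%) or Hspa1a-led cells (1.09%). In paired pools Sema3g was higher in peripheral nodes in 4 of 4 pairs in arterial, Igfbp3 capillary, Fabp4 capillary and Hspa1a-led cells. In Aqp1-led cells it was higher in 2 of 4. Plxna2 was lower in 4 of 4 arterial pairs, and Sema7a higher in 4 of 4 Aqp1-led but 2 of 4 arterial pairs. The share of all genes with such patterns is not given here.

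In high endothelial cells none of 6 members tested was called between tissues in edgeR's quasi-likelihood test, beside 0.222% of 5862 genes. Sema7a had the largest difference, 0.70 ± 0.28, and was the only member at an unadjusted p under 0.05. DESeq2 called 0 as well. Of the 8 pools there, 1, Xbp1-KO peripheral of library 2, held 8 cells.

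For the genotype comparison the targeted gene was examined first. Xbp1, a regulator of the unfolded protein response, stood in lymphatic cells at 122, 101, 108 and 56.4 CPM in WT and at 47.2, 50.8, 53.7 and 51.9 CPM in Xbp1-KO pools, peripheral pools before mesenteric ones. The log2 difference was -1.03 ± 0.16 (edgeR adjusted p = 0.184, and 9.61e-04 with the library as a replicate block, and 5.78e-04 without library 2). Within floor cells it was -1.30 (edgeR adjusted p = 0.00147), with 3 of 4 knockout pools below their WT partner and overlapping groups, in other blood cells -0.81 and in high endothelial cells -0.49. Tags of the 3′ end need not fall in the deleted part of a gene, so remaining counts do not measure how much functional transcript was left.

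No member was called between Xbp1-KO and WT in any class: 0 of 9 in lymphatic, 0 of 8 in other blood and 0 of 6 in high endothelial cells, beside 0% of all genes in each of the 3 edgeR quasi-likelihood tests. At an unadjusted p under 0.05, 0 members and 633, 215 and 222 genes were found in the same order. DESeq2 called 0 members in each class and 3, 0 and 0 genes. With the library as a replicate block, edgeR called 90, 11 and 0 genes and 0 members in each class. The largest differences among the members were 0.33 ± 0.17 for Sema5a in lymphatic cells, -0.27 ± 0.17 for Sema3g in other blood cells and -0.36 ± 0.34 for Plxna2 in high endothelial cells. Set against the WT pool of the same library and tissue, all 4 lymphatic knockout pools held more Sema5a and Sema6a and less Sema3f. The genotypes overlapped, and none of the 3 genes passed the edgeR test. The share of all genes with the same direction in all 4 pairs is not given here. Without library 1, in a fit that adds tissue and genotype and leaves 1 residual degree of freedom, Sema3g in other blood cells was called at -0.65 (edgeR adjusted p = 0.00151), and without library 2 it was 0.04. No member was called in the test of whether the genotype difference itself differed between tissues, in any class. Nor was any of the 10683, 9560 and 5862 genes tested in lymphatic, other blood and high endothelial cells. WT and Xbp1-KO pools differed in Xist and Ddx3y within each library, as given above. A genotype fit without 1 library therefore cannot be told apart from this difference, and its part in the other fits was not tested.

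**Figure D5:**
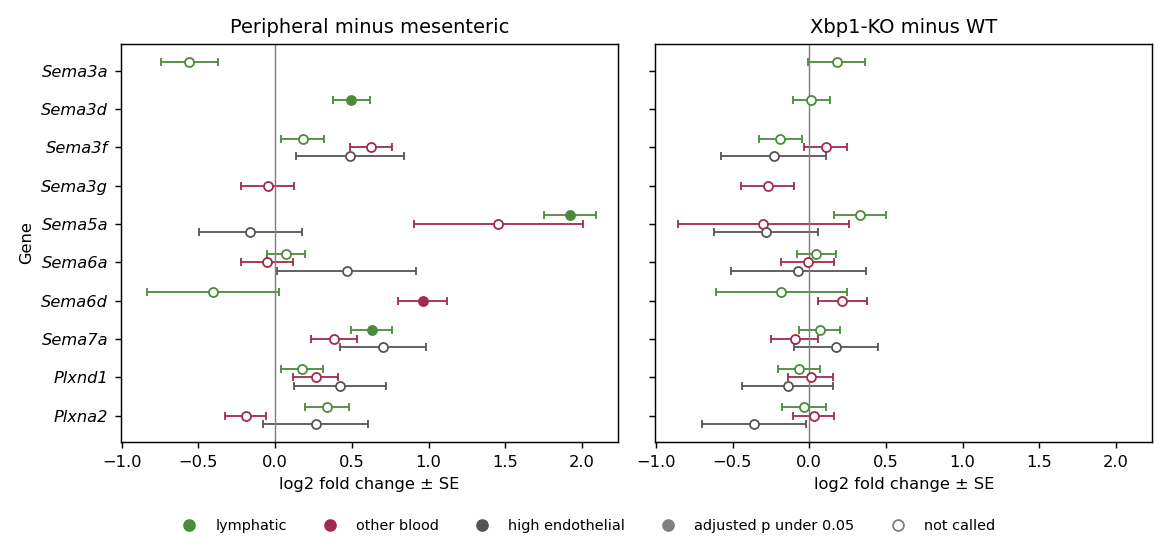
Log2 difference of each member in the tissue comparison (peripheral minus mesenteric) and the genotype comparison (Xbp1-KO minus WT) in lymphatic, other blood and high endothelial cells, with bars of 1 SE from the edgeR fit; filled points passed an adjusted p of 0.05. Sema5a, Sema7a and Sema3d in lymphatic cells and Sema6d in other blood cells are filled in the tissue panels, and no point is filled in the genotype panels.

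Genes with a pattern over the 14 subset means most like that of each member were listed by Pearson correlation of log2(CPM + 10) among 8787 genes, as a description over cells of shared libraries. For Sema3d they were Tbx1 (0.997), Prox1 (0.992) and Pdpn (0.992), and for Sema3a Gprc5c (0.994), Igsf10 (0.991) and Slc38a4 (0.985). Prox1 and Pdpn are standard lymphatic markers. Sema3g ran closest to Msx1 (0.967), Magix (0.961) and Arhgap10 (0.959), and Sema5a to Chchd7 (0.953), Tk2 (0.928) and Klhl36 (0.928). Sema6d ran with Plekha1 (0.959), Esm1 (0.945) and Prdm1 (0.944). Esm1 was among the leading genes of the Col13a1 capillary cluster. The closest genes were Tspan9 (0.907), Ppm1g (0.840) and Zfp462 (0.835) for Sema3f, Cpt1a (0.930), Dctn1 (0.911) and Ssbp3 (0.910) for Sema6a, and Fes (0.919), Slc12a2 (0.901) and Apol9a (0.891) for Sema7a. For Plxnd1 they were Cnn2 (0.907), Skp1a (0.882) and Tpm4 (0.861), and for Plxna2 Nr3c1 (0.917), Slc10a7 (0.890) and Bicd2 (0.887). Among the members themselves Sema3a and Sema3d were the most alike (0.911), and Sema6d and Sema3a the most opposed (-0.762).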

How the data were processed

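Endothelial cells were sorted from pooled nodes after enzymatic digestion and bead depletion of CD45-positive cells, per the labels' protocols. The labels give the 3′ kit as version 2 and elsewhere as version 3. The authors deposited raw UMI counts per gene and cell barcode. The Cell Ranger release is 6.0.1 per the file headers, and 6.1 on mm10 per the submitters' processing notes. Whether introns and strand were used in counting is not given in the sources used here.

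Hashtags were called with HTODemux in Seurat 5.3.0 (positive quantile 0.99). Kept barcodes had 1 tag, at least 500 genes and no more than 10% mitochondrial UMIs. Barcodes with more than 1 tag (685 and 130) were left out as doublets, and Scrublet removed 65 and 4 more. Clustering used scanpy 1.11.5, 1992 variable genes, 30 components, 15 neighbours and Leiden resolution 1. Counts were summed per pool and class or subset, and tested with edgeR 4.0.16 in R 4.3.3 (TMM, filterByExpr, quasi-likelihood, adjusted p under 0.05). Subset pairs had the pool as a block. Tissue and genotype fits had 4 group means and no block. Pools of a library share its preparation, so a fit with the library as a block was run too. The edgeR steps were tested on simulated data. Alternatives were DESeq2 1.42.0, no filter, another hashtag rule, 5% mitochondrial UMIs, thinned sums, leaving out a library and resolution 0.5. The members and gene lists were chosen with earlier results of these data known. Named were all members, family genes that passed, and for likeness the 3 closest genes with at least 20 CPM in a subset. Within-subset fits, leaving out the Hspa1a-led cluster and the test of Sema5a between subsets were added after seeing the data.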

Additional observations from a re-analysis of the deposited data

How the results depend on the processing

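Of 85 recomputed counts of called members and neighbour pairs, 71 stayed within 1.5 times the reported count and 14 moved. With every sum thinned to the smallest of its comparison, the number of members called was 0 for tissue in lymphatic cells (3 as reported), 0 for tissue in other blood cells (1), 1 for arterial against capillary cells (4) and 0 for high endothelial against venous cells (5). Thinning leaves fewer counts in each sum. Leaving out a library gave 1 to 5 members for tissue in lymphatic cells and 3 for tissue in other blood cells. It gave 0 to 1 for genotype in other blood cells and 2 to 4 for arterial against capillary cells. Tissue in other blood cells also had 3 called members without the filter on low counts, 3 with the library as a replicate block, 2 at Leiden resolution 0.5 and 2 without the Hspa1a-led cluster. The cause of these shifts was not tested. Within subsets the replicate block moved the count for tissue from 0 to 1 in Igfbp3 capillary and from 1 to 2 in ceiling cells. It moved no other count of called members by over 1.5 times.

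Of 327 recomputed values of single genes, 278 kept their direction and their side of the threshold, 22 lost and 25 gained a call. The other 2, neither called as reported, changed sign without library 2: Sema3g by genotype in other blood cells ran from -0.65 to 0.0422 over the fits without a library, and Sema7a in arterial against capillary cells from -0.0033 to 0.24. Without a library, tissue and genotype fits are additive with 1 residual degree of freedom and no interaction, and arterial against capillary cells keeps the pool as a block with 3. High endothelial against venous cells could not be tested without library 1, with WT pools only or at resolution 0.5. The smallest high endothelial sum held 53493 UMIs.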

Other observations

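A non-endothelial cluster of 121 cells was left out of the classes above. It was mixed: of its 10 leading genes, Acta2, Myh11 and Notch3 are mural markers and Dcn, Col3a1 and Col1a2 fibroblastic ones, and all 7 markers of both lists were detected. Pooled over its 513751 UMIs, Sema5a was counted at 85.6 CPM, beside 76.4 CPM in high endothelial cells pooled, and Plxnd1 at 167 CPM, Sema7a at 77.9 CPM and Sema3g at 70.1 CPM. Sema3a stood at 1.95 CPM and Sema3d at 13.6 CPM there. These are pooled values of 1 cluster, with no error over pools.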
